A study of Mus musculus with 8 samples.

Results

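The lysosome is the acidic organelle in which microglia, the resident phagocytes of the brain, break down what they take up. Its membrane carries the V-ATPase, a proton pump with a membrane sector (V0) that conducts protons and a cytosolic sector (V1) that splits ATP, next to heavily glycosylated membrane proteins and channels and transporters that export the products of digestion. Soluble hydrolases work inside, and many of their genes, with those of the V-ATPase, are targets of the transcription factors TFEB and TFE3, which bind an E-box motif in their promoters.

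The genes described here are 54 such genes other than the cathepsins, named as a list and found in the count table by Ensembl identifier through the symbols of the GENCODE vM21 annotation. All 54 were found among the 52636 identifiers of the table. They comprise 14 V-ATPase genes and 40 others, and 81 further genes of the pathway were taken from a second list. RNA came from primary C57BL/6 microglia (the study's methods name C57BL/6N pups) of wild-type (WT) genotype, cultured in DMEM with 10% fetal bovine serum and 10 ng/ml CSF-1, and exposed for 24 h to vehicle or to 5 µg/ml LPS, the bacterial endotoxin that puts microglia into a reactive state. The cells had been shaken off mixed glial cultures of neonatal mouse brains, a preparation in which microglia grow outside their tissue and with serum in both groups. Each group had 4 libraries, labelled as biological replicates, with 20071921 to 30604447 counts. Nothing in the labels says which animals or cultures they came from, so p-values measure the spread between these libraries.

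Levels are given as CPM, counts scaled to the size of the library after TMM scaling, an adjustment in edgeR for libraries of different composition, and levels of different genes are compared only as CPM per kb of exons. Changes are the log2 fold change of LPS against vehicle with its standard error (SE), and a gene was called at an adjusted p under 0.05 in edgeR's quasi-likelihood test over the 13847 genes that passed the filter on low counts. The composition of the libraries differed between the groups. TMM factors were 1.208 to 1.32 in vehicle and 0.701 to 0.8331 in LPS libraries, and scaling to library totals alone moved the median change of all genes by -0.68, from -0.11 to -0.79. Directions that turn under that scaling are therefore given beside the results. In bulk RNA, fewer cells of a type and less RNA per cell cannot be told apart.

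Markers of microglia were high in every library, with a summed level of 10 markers of 9377 to 12441 CPM in vehicle and 1952 to 2383 CPM after LPS, and 8 of the 10 fell and 0 rose. The summed level of the astrocyte markers was 20.8 to 47.7 CPM in vehicle and 41.4 to 124 CPM after LPS, with 1 of 8 tested markers higher and 3 lower. Gja1 alone of them had a higher mean after LPS, 48.6 against 0.873 CPM, and the rise of the sum came from it. The endothelial list summed to 31.1 to 73.5 CPM and 163 to 254 CPM, with 3 of 3 tested markers higher, while no library had over 3 counts of Cldn5, Tek or Esam. Oligodendrocyte precursor (OPC) markers summed to 23.9 to 104 CPM and 54.0 to 125 CPM, with 1 of 6 tested markers higher and 3 lower. Vcan alone of them had a higher mean after LPS, 61.2 against 16.6 CPM. Oligodendrocyte markers summed to 150 to 205 CPM and 188 to 237 CPM, with 1 of 4 higher and 1 lower. Among these the mean of Cnp went from 88.6 to 195 CPM and that of Mbp from 84.0 to 15.3 CPM. Fibroblast markers summed to at most 20.9 CPM and neuron markers to at most 8.52 CPM in any library. The part of these shifts in the changes below was not tested.

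Promoters were searched for the motif of these factors. Of the 54 genes, 47 matched a RefSeq promoter (build GRCm38.p6, 250 bases before to 50 after the start). Those without an entry were Asah1, Atp6v0d2, Atp6v1b2, Atp6v1c1, Atp6v1h, Galns and Npc1. The E-box CACGTG, which reads the same on both strands, was present in 14 of the 47 (29.8%) and in 8.09% of all 27025 genes with a promoter. Its extended form TCACGTGA, the core of the motif bound by TFEB and TFE3 and nested in the first, was present in 6 of 47 (12.8%) and in 1.12% of all genes. The full palindrome of 10 letters known as CLEAR, which adds a G before and a C after it, was found in Cln3 alone (2.13%) and in 0.37% of all genes. The 6 promoters with the extended form are printed because their genes are compared below, with the motif in capitals, 20 bases before and 10 after it.
Atp6v0d1 (chr8:105566051-105566088, minus strand): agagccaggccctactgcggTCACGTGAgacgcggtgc
Atp6v0e (chr17:26676378-26676415, plus strand): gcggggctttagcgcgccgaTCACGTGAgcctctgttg
Atp6v1a (chr16:44139374-44139411, minus strand): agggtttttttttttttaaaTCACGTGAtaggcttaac
Cln3 (chr7:126583340-126583379, minus strand): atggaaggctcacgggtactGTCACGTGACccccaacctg
Gla (chrX:134601216-134601253, minus strand): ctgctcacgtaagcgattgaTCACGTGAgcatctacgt
Mcoln1 (chr8:3500453-3500490, plus strand): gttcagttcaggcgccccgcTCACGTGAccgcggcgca
The Cln3 entry lies inside the gene, before an alternative start, and the other promoter entry of Cln3 holds no E-box. For contrast, the promoters of Lamp1, with 4 E-boxes, and of Sgsh, with 1, are printed with CACGTG in capitals.
Lamp1 (chr8:13159080-13159161, plus strand): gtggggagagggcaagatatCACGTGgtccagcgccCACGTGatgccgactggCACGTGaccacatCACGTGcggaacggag
Sgsh (chr11:119355524-119355559, minus strand): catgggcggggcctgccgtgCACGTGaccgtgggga
None of the 5 E-boxes in these 2 promoters is flanked as in TCACGTGA.

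Across the list, LPS lowered more genes than it raised. Of the 54 genes 53 were tested, of which 14 rose (26.4%, against 30.3% of all genes tested) and 27 fell (50.9%, against 33.8%), while 12 were not called. Their median log2 change was -0.36, beside -0.11 for all genes, a distance of -0.25 with TMM scaling. The distance was also -0.25 with library totals alone. Scaling moves all genes by nearly the same amount, so such distances hardly change and are no check on the scaling. Of the 53 genes, 13 were higher and 28 lower after LPS with no overlap between the levels of the 2 groups, 41 in all. The shares among all genes tested were 28.7%, 31.5% and 60.2%. The replicate number as a block left 14 higher and 28 lower, against 29.7% and 35.6% of all genes. With library totals only, 3 genes were higher (Galns, Npc2 and Atp6v1d) and 38 lower, against 14.4% and 61.1% of all genes. The 54 genes took 3.65% ± 0.103 (SD, n = 4) of all counts in vehicle libraries and 1.97% ± 0.093 in LPS libraries. Such shares are on the scale of library totals, where the median log2 change was -0.79 for all genes and -1.03 for the 53.

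**Figure D1:**
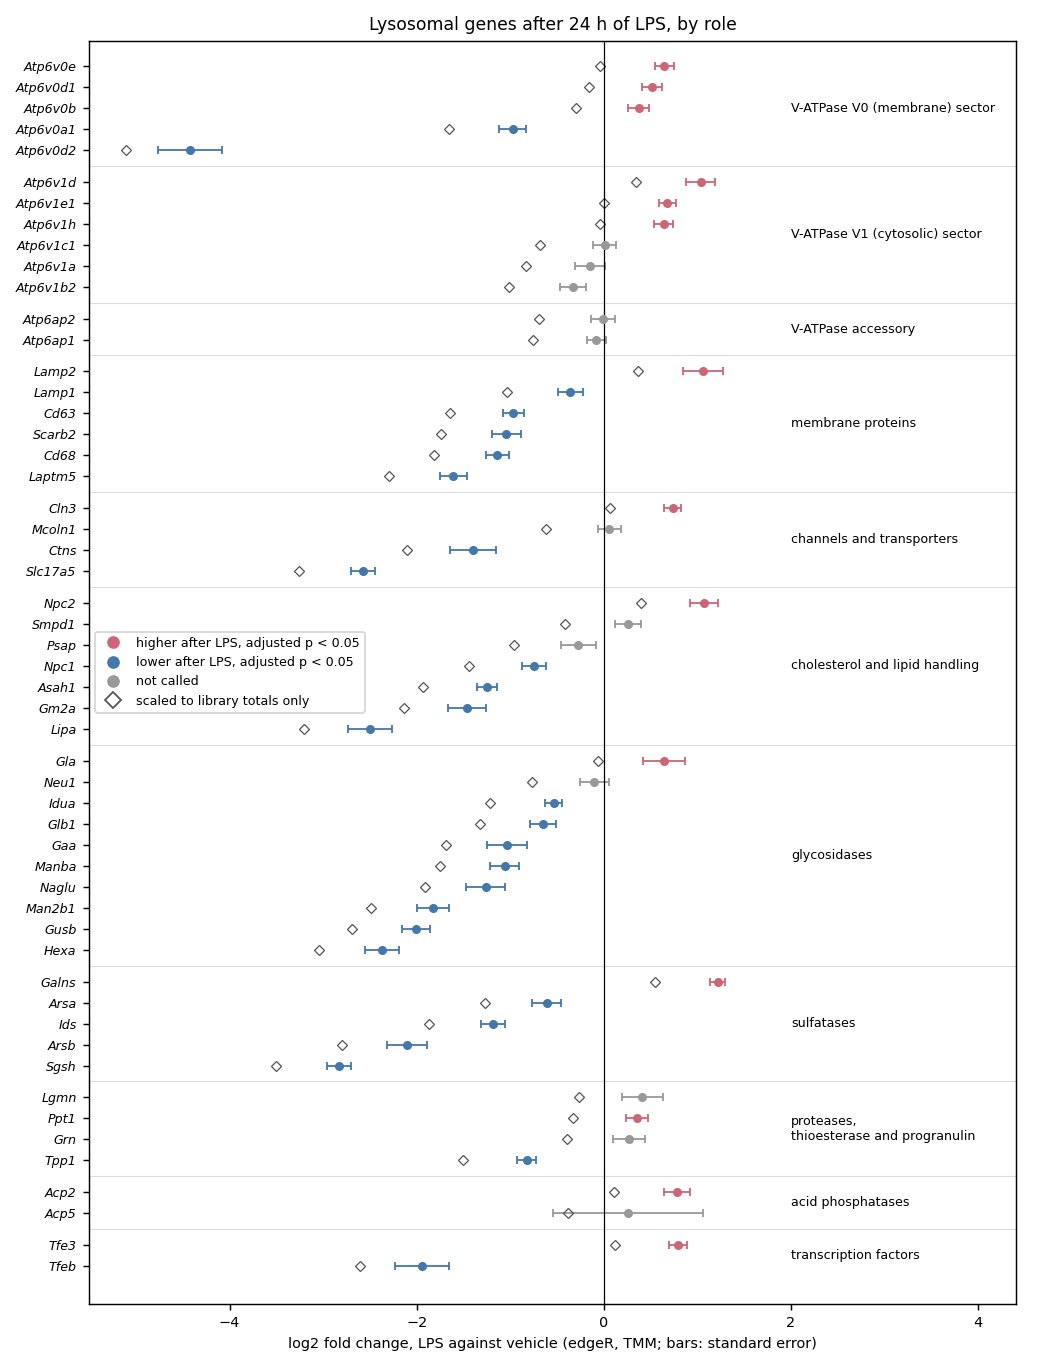
Log2 fold change of LPS against vehicle (x axis) for the 53 genes tested, grouped by role, with TMM scaling (circles, bars are standard errors) and with library totals only (diamonds, all farther to the left). With TMM scaling the V-ATPase genes lie between -0.33 and 1.03 apart from Atp6v0d2 and Atp6v0a1, whereas most glycosidases and sulfatases lie to the left.

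The V-ATPase genes and the others are given apart. Of 13 V-ATPase genes tested, 6 rose and 2 fell with TMM scaling (46.2% and 15.4%, against 30.3% and 33.8% of all genes), while 1 was higher and 7 were lower with library totals only (against 14.4% and 61.1% of all genes). Their median log2 change was 0.01, or -0.68 with library totals only, which is 0.12 and 0.11 above that of all genes. Of the 40 others, 8 rose and 25 fell, with a median of -0.79.

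In the V0 sector, Atp6v0b, a proteolipid of the proton-conducting ring, had the highest level per length, 114 CPM per kb in vehicle and 147 after LPS. Its level was 256, 228, 225 and 223 CPM in the vehicle libraries and 299, 318, 265 and 323 CPM after LPS. The groups did not overlap (log2 change 0.37, SE 0.11, edgeR adjusted p = 0.013), but the gene was not called with upper quartile scaling (0.22) or with no filter on low counts (0.34), the sign turned to -0.30 with library totals only, and 11.85% of its exonic bases overlap Gm12841 on the other strand. Atp6v0d1 and Atp6v0d2 encode the ubiquitous and the osteoclast and macrophage form of subunit d, which links the sectors. Atp6v0d1 was at 160, 141, 165 and 140 CPM in vehicle and at 195, 217, 235 and 221 CPM after LPS. It rose by 0.52 (SE 0.11, edgeR adjusted p = 0.00196), with a value of -0.16 on library totals only. Atp6v0d2 (chromosome 4, 19876841 to 19922605, GRCm38) fell most of all 53 genes, from 47.7, 31.9, 21.0 and 23.1 CPM to 1.38, 0.817, 1.91 and 1.62 CPM. Every LPS library lay far below every vehicle library, and the mean was 21.6-fold lower (log2 change -4.42, SE 0.34, edgeR adjusted p = 4.38e-06). Subunit a anchors the pump and its isoforms direct it to different membranes. Atp6v0a1 was at 304, 406, 334 and 402 CPM in vehicle and at 151, 202, 187 and 197 CPM after LPS, a 1.96-fold fall of the mean with no overlap (log2 change -0.97, SE 0.14, edgeR adjusted p = 0.000234). Atp6v0e, a small membrane subunit, rose from 118 ± 6.41 to 184 ± 16.3 CPM (SD, n = 4, log2 change 0.64), which became -0.04 with library totals only.

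For Atp6v0c, the main proteolipid of the ring, the table held 8, 8, 33 and 3 counts in vehicle and 4, 6, 2 and 7 counts in LPS libraries. It did not pass the filter. Of the windows of 50 bases of its longest transcript, 12.19% also occur in Atp6v0c-ps2 or Atp6v0c-ps1. Only reads with a unique alignment were counted. Whether this accounts for the low counts of Atp6v0c was not tested, and its level is uncertain.

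In the V1 sector, Atp6v1d, a subunit of the central stalk, rose from 71.9, 70.7, 83.4 and 73.6 CPM to 124, 146, 203 and 141 CPM. The mean was 2.05-fold higher (log2 change 1.03, SE 0.15, edgeR adjusted p = 0.000263), and the gene remained higher with library totals only (0.34, edgeR adjusted p = 0.0184). The stalk subunit Atp6v1e1 rose from 162 to 259 CPM and the regulatory subunit Atp6v1h from 85.8 to 133 CPM (log2 changes 0.68 and 0.64), and both were near 0 with library totals only, at 0.00 and -0.04. Genes of the catalytic head were not called. Atp6v1a, the ATP-splitting subunit, was at 678, 679, 693 and 687 CPM in vehicle and at 450, 637, 764 and 621 CPM after LPS, so the groups overlapped. Atp6v1b2, its non-catalytic partner and the V1 gene with the highest level per length (126 and 100.5 CPM per kb), was at 634, 677, 668 and 698 CPM and at 408, 560, 619 and 546 CPM. The groups did not overlap (log2 change -0.33, SE 0.14, edgeR adjusted p = 0.0657), and it was called lower with the replicate number as a block (edgeR adjusted p = 0.048) and without LPS replicate 3 (-0.40, edgeR adjusted p = 0.0251). It was also called lower with at least 10 counts in every library (-0.39), with upper quartile scaling (-0.49) and with library totals only (-1.02). Atp6v1c1 was at 162 ± 1.42 and 163 ± 28.0 CPM (SD, n = 4). The accessory genes Atp6ap1 and Atp6ap2 were not called either, with means of 456 and 432 CPM and of 228 and 227 CPM. All 5 V1 and accessory genes that were not called were lower with library totals only, at -1.02 to -0.68. Under that scaling 61.1% of all genes were lower, and the median of all genes was -0.79. Atp6ap1 was also lower with upper quartile scaling (-0.24).

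**Figure D2:**
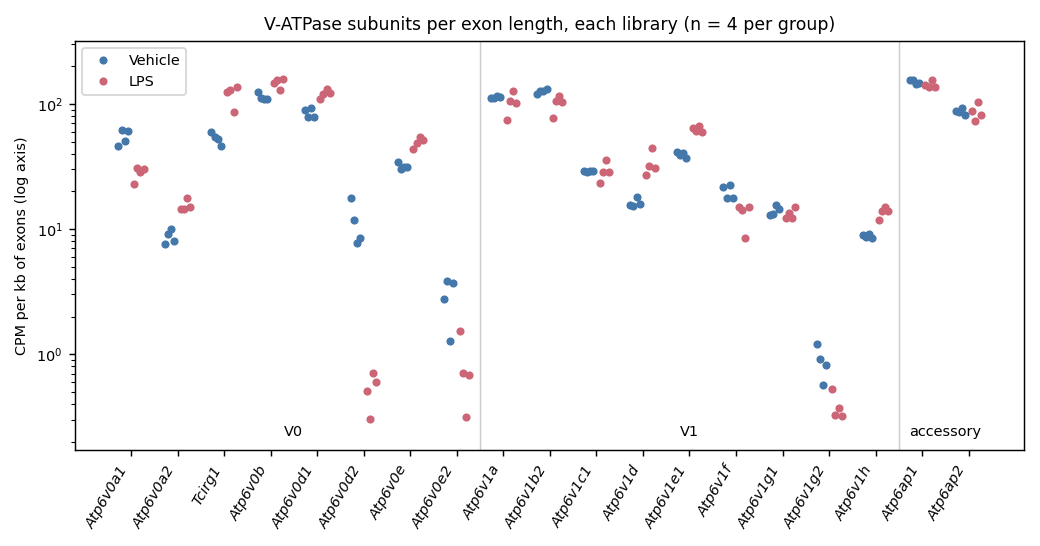
Level of the 13 V-ATPase genes tested and of 6 further subunits in each library, as CPM per kb of exons on a log axis, with vehicle in blue and LPS in red (n = 4 each). Atp6ap1 and Atp6v0b are among the highest in both groups, while Atp6v0d2 drops from 11.4 to 0.527 CPM per kb and Tcirg1 goes from 53.2 to 119.

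Paralog shares compare genes within a library, so no scaling between libraries enters them. Atp6v0d2 made up 16.48%, 13.0%, 7.72% and 9.83% of the length-normalized counts of Atp6v0d1 and Atp6v0d2 in vehicle libraries, and 0.464%, 0.248%, 0.535% and 0.483% after LPS. Tcirg1, the a3 isoform of lysosomes and osteoclasts, made up 52.4%, 43.4%, 46.5% and 39.9% of the subunit a genes in vehicle and 76.8%, 74.2%, 65.2% and 75.1% after LPS. Its mean share was 27.3 percentage points higher. In CPM, Tcirg1 rose from 245 ± 25.6 to 548 ± 102 (SD, n = 4, log2 change 1.16, SE 0.16, edgeR adjusted p = 0.000162). Atp6v0a2 rose from 58.4 ± 7.18 to 104 ± 11.0 CPM (log2 change 0.83, SE 0.12), or by 0.15 with library totals only, where it was no longer called. Lamp2 made up 10.3% ± 1.25 of the Lamp1 and Lamp2 counts in vehicle and 23.1% ± 4.11 after LPS, or 20.2% and 39.7% with the longest transcript as length. Tfeb made up 22.5% ± 1.69 of Tfeb and Tfe3 and then 4.14% ± 1.70, and Mcoln1 36.1% ± 9.78 of the 3 mucolipin genes and then 8.82% ± 2.40. With the longest transcript as length the means were 32.5% and 6.64% for Tfeb and 52.7% and 16.2% for Mcoln1. They were 11.5% and 0.421% for Atp6v0d2 and 45.3% and 73.5% for Tcirg1. The size of a share thus depends on the length used. In all 5 comparisons the 4 vehicle and 4 LPS libraries did not overlap (exact permutation test, two-sided, p = 0.0286, which is the lowest that 4 against 4 can give, and 0.0286 adjusted over the 5). With the replicate numbers as pairs, every pair moved the same way, and the exact sign-flip permutation test gave p = 0.125, the smallest that 4 pairs allow. The 5 comparisons were chosen with earlier results of these data known, so their p-values only describe how these libraries separate.

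**Figure D3:**
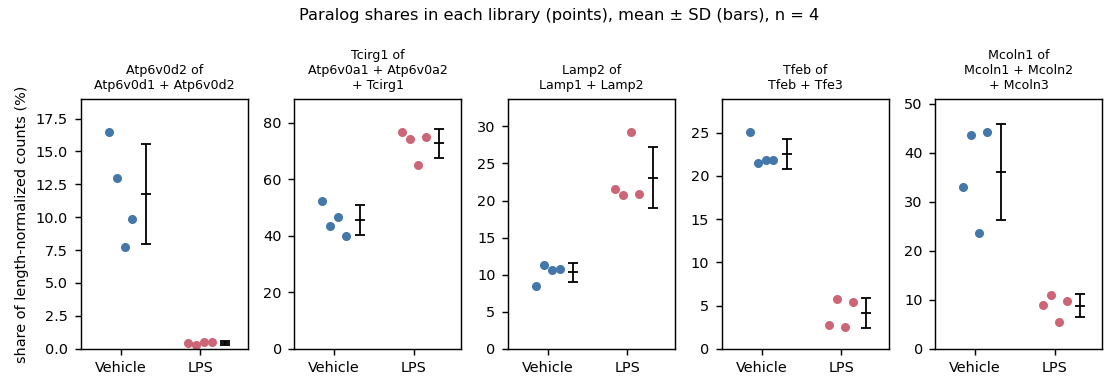
Share of 1 gene in the length-normalized counts of its paralogs (y axes, in percent) in each vehicle and LPS library (points), with mean and SD (bars, n = 4). Shares of Tcirg1 and Lamp2 were higher and those of Atp6v0d2, Tfeb and Mcoln1 lower after LPS, without overlap.

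Among the membrane proteins 5 of 6 fell (83.3%, against 33.8% of all genes) and 1 rose (16.7%, against 30.3%). Lamp1, the most abundant per length (934 and 729 CPM per kb), forms with Lamp2 much of the sugar coat on the inner face of the membrane. It was at 2617, 2307, 2771 and 2298 CPM in vehicle and at 1992, 1832, 2120 and 1855 CPM after LPS. All LPS libraries lay below all vehicle libraries (log2 change -0.36, SE 0.13, edgeR adjusted p = 0.039), but the call was lost without any 1 library other than LPS replicate 3, at -0.24 to -0.37, and with no filter on low counts (-0.39). Lamp2 (chromosome X, 38401357 to 38456454), which also serves in chaperone-mediated autophagy, rose from 867, 1054, 1180 and 991 CPM to 1957, 1713, 3129 and 1743 CPM. LPS replicate 3 was the highest, and the groups did not overlap (log2 change 1.06, SE 0.22, edgeR adjusted p = 0.00184). With library totals only its change was 0.36 and was not called. Cd68, a scavenger receptor-like protein of phagocytes often stained to mark reactive microglia, fell from 915, 1105, 1017 and 1072 CPM to 445, 472, 432 and 518 CPM (log2 change -1.14, SE 0.12, edgeR adjusted p = 3.19e-05). These are levels of RNA in cultured cells, whereas the stain is of protein. The study reported more CD68 at later times in mice injected with LPS. Laptm5, a membrane protein of blood cell lysosomes, fell 3.05-fold, from 1711 ± 153 to 561 ± 73.4 CPM (SD, n = 4). Scarb2, the receptor that brings glucocerebrosidase to the lysosome, fell from 323 ± 3.01 to 157 ± 35.3 CPM. Cd63, a tetraspanin, fell from 285 ± 24.6 to 145 ± 12.3 CPM. Reads of Cd63 can be split with its pseudogene Cd63-ps, which shares 9.1% of the windows of 50 bases and itself held 5066 to 6269 counts in vehicle and 1792 to 2605 after LPS, so the level of Cd63 is uncertain.

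**Figure D4:**
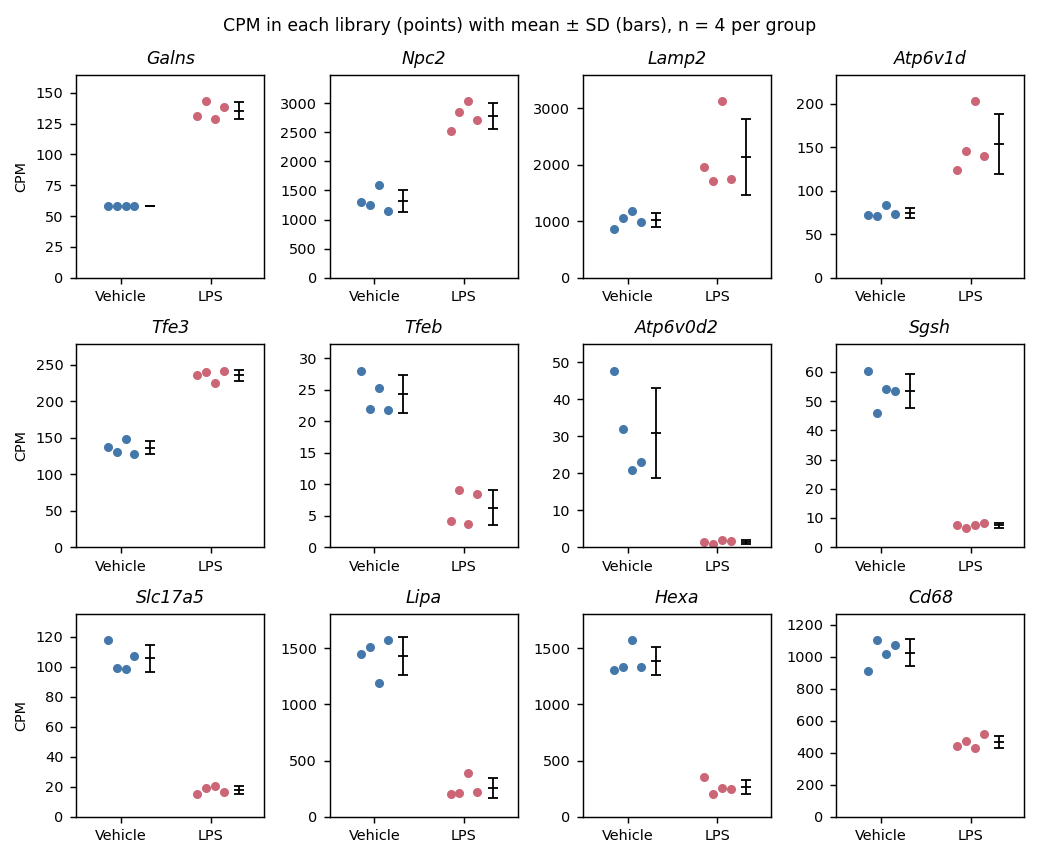
CPM of 12 genes in each library (points), with mean and SD beside them (bars, n = 4 per group). The 5 largest rises are Galns, Npc2, Lamp2, Atp6v1d and Tfe3, the others fell, and vehicle and LPS libraries do not overlap in any panel.

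Of the channels and transporters, Cln3, the protein lost in juvenile Batten disease, had the highest level per length (18.4 and 30.6 CPM per kb). It rose from 102, 109, 105 and 109 CPM to 184, 191, 162 and 171 CPM (log2 change 0.73, SE 0.09, edgeR adjusted p = 9.72e-05), which was 0.06 with library totals only, and 7.65% of its exonic bases overlap Apobr on the other strand, which itself had 2422 to 3047 counts in vehicle and 3511 to 5674 after LPS. Slc17a5, the sialic acid exporter sialin (chromosome 9, 78536488 to 78588041), fell from 118, 98.9, 98.4 and 107 CPM to 14.8, 19.3, 20.3 and 16.5 CPM, a 5.95-fold lower mean with no overlap (log2 change -2.57, SE 0.13, edgeR adjusted p = 3.59e-07). Ctns, the cystine exporter, fell from 46.1 ± 1.51 to 17.4 ± 6.58 CPM (SD, n = 4, log2 change -1.40). Mcoln1, the calcium-conducting channel TRPML1, was at 46.0, 43.8, 35.2 and 44.8 CPM and at 43.8, 51.5, 38.9 and 42.6 CPM. These groups overlapped (log2 change 0.06, SE 0.12, edgeR adjusted p = 0.694), and Mcoln1 was called lower with library totals only (-0.62). Its paralog Mcoln2, from the second list, rose from 38.6, 23.4, 47.9 and 22.8 CPM to 192, 181, 295 and 171 CPM (log2 change 2.66, SE 0.28, edgeR adjusted p = 3.26e-05). Mcoln3 had 37 to 64 counts in vehicle libraries and 0 or 1 count in LPS libraries, which makes it at least 10.8-fold lower against a floor of 3 counts per library.

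Genes of cholesterol and lipid handling went in both directions, with 1 of 7 higher and 4 lower (14.3% and 57.1%, against 30.3% and 33.8% of all genes). With library totals only 1 was higher and 6 were lower, against 14.4% and 61.1% of all genes. Npc2 and Npc1 pass cholesterol out of the lysosome in turn, the first in the lumen and the second in the membrane. Npc2 (chromosome 12, 84754562 to 84773152) rose from 1294, 1257, 1596 and 1141 CPM to 2526, 2845, 3037 and 2707 CPM. The groups lay well apart (log2 change 1.07, SE 0.15, edgeR adjusted p = 0.000172), also with library totals only (0.40, edgeR adjusted p = 0.0118). Npc1 fell from 284, 267, 233 and 265 CPM to 125, 162, 181 and 156 CPM (log2 change -0.75, SE 0.13, edgeR adjusted p = 0.000736). Lipa, the acid lipase that frees the cholesterol they carry (chromosome 19, 34492318 to 34527474), fell from 1450, 1511, 1188 and 1571 CPM to 200, 209, 385 and 217 CPM. LPS replicate 3 was the highest of its group and still far below vehicle (log2 change -2.50, SE 0.23, edgeR adjusted p = 1.39e-05). Asah1, acid ceramidase, fell from 530 ± 24.4 to 223 ± 19.3 CPM (SD, n = 4), and Gm2a, the activator that presents GM2 ganglioside to hexosaminidase, from 155 ± 40.5 to 56.4 ± 10.8 CPM. Smpd1, acid sphingomyelinase, was at 29.0 ± 2.92 and 34.7 ± 5.85 CPM and was not called (log2 change 0.26). It was called higher without LPS replicate 1 (0.36, edgeR adjusted p = 0.0248) and lower with library totals only (-0.42, edgeR adjusted p = 0.0274). Psap, the precursor of the saposins, had the highest level per length of all 54 genes, 1509 and 1247 CPM per kb. It was at 4878, 3535, 4788 and 3364 CPM and at 3029, 3278, 4200 and 3178 CPM, which overlapped (log2 change -0.28, SE 0.19, edgeR adjusted p = 0.22). It was called lower with upper quartile scaling (-0.43, edgeR adjusted p = 0.0411) and with library totals only (-0.96, edgeR adjusted p = 0.000256).

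Most of the glycosidases and sulfatases, which take sugar chains and sulfate groups off glycolipids and glycosaminoglycans, fell. Of 15 genes 12 fell (80.0%, against 33.8% of all genes) and 2 rose (13.3%, against 30.3%), with a median log2 change of -1.06. With library totals only 13 were lower and 1 higher, against 61.1% and 14.4% of all genes. The 10 glycosidases together took 0.536% ± 0.0232 of the counts in vehicle libraries and 0.118% ± 0.0122 after LPS (SD, n = 4). On that scale of library totals the median log2 change was -0.79 for all genes and -1.72 for the glycosidases. Hexa, the alpha subunit of hexosaminidase (chromosome 9, 59539540 to 59565109), was the most abundant of them per length, at 694 and 134 CPM per kb. It fell from 1308, 1329, 1570 and 1335 CPM to 355, 206, 258 and 248 CPM (log2 change -2.38, SE 0.18, edgeR adjusted p = 4.08e-06). Of its exonic bases 12.78% overlap Tmem202 on the other strand, which had at most 77 counts in a library. Gusb, beta-glucuronidase, fell 4.02-fold, from 940 ± 65.5 to 234 ± 39.4 CPM, and Man2b1, an alpha-mannosidase, 3.55-fold, from 1021 ± 104 to 287 ± 63.1 CPM. Naglu, Manba, Gaa, Glb1 and Idua fell by 1.26, 1.06, 1.03, 0.65 and 0.53 on the log2 scale. Neu1, a sialidase, was not called, with means of 99.3 and 92.4 CPM, except with library totals only (-0.76). Gla, alpha-galactosidase A, was at 164, 174, 188 and 157 CPM in vehicle and at 163, 255, 393 and 254 CPM after LPS. LPS replicate 1 lay within the vehicle range, and the call (log2 change 0.64, SE 0.23, edgeR adjusted p = 0.0305) was lost without vehicle replicate 4 or LPS replicate 2, 3 or 4, with values of 0.62, 0.67, 0.40 and 0.67, and was -0.06 with library totals only.

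Sulfatases gave the largest rise of the list and its second largest fall. Galns, which cuts sulfate from keratan sulfate (chromosome 8, 122578242 to 122611463), was at 58.3, 58.0, 58.5 and 58.5 CPM in vehicle and at 131, 143, 129 and 139 CPM after LPS. Both groups were tight, and the mean was 2.32-fold higher (log2 change 1.22, SE 0.08, edgeR adjusted p = 1.97e-06) and still higher with library totals only (0.54, edgeR adjusted p = 0.000828). Sgsh, which acts on heparan sulfate (chromosome 11, 119343425 to 119355536), fell from 60.4, 46.0, 54.1 and 53.5 CPM to 7.60, 6.43, 7.70 and 8.44 CPM. That mean was 7.09-fold lower (log2 change -2.83, SE 0.13, edgeR adjusted p = 2.40e-07), with 21.64% of its exonic bases overlapping Card14 on the other strand, which had at most 7 counts in a library. Ids, iduronate sulfatase, fell from 123 ± 6.21 to 54.1 ± 9.16 CPM and Arsa, arylsulfatase A, from 38.6 ± 2.55 to 25.3 ± 5.43 CPM (SD, n = 4). Arsb fell from 77.9 ± 19.4 to 18.1 ± 3.89 CPM, but it shares 57.8% of its windows of 50 bases with other annotated genes and is uncertain, and 18.75% of the exonic bases of Arsa overlap a gene on the other strand.

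**Figure D5:**
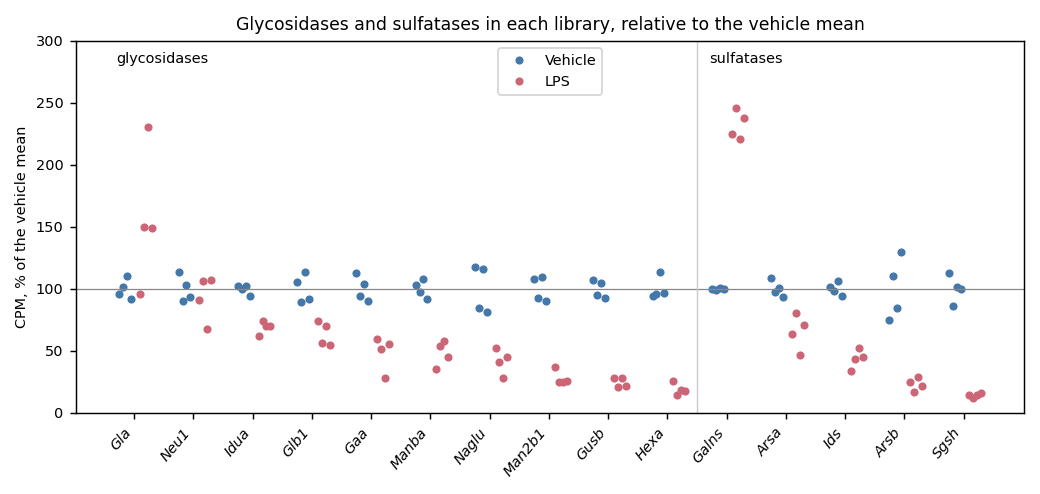
CPM of 15 glycosidases and sulfatases in each library as percent of the gene's own vehicle mean (y axis), with vehicle in blue and LPS in red (n = 4 each). Only Galns has all LPS libraries above all vehicle libraries, and the LPS means of Sgsh and Hexa lie lowest.

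Among proteases and related enzymes, Lgmn, the asparaginyl endopeptidase that also processes cathepsins, had the highest level per length (925 and 1231 CPM per kb). It was at 1955, 2327, 2196 and 2116 CPM and at 1828, 3712, 2544 and 3353 CPM. LPS replicate 1 was the only LPS library below the vehicle range, and the gene was not called (log2 change 0.41, SE 0.22, edgeR adjusted p = 0.121), except without that library (0.58, edgeR adjusted p = 0.016), and had a value of -0.26 with library totals only. Tpp1, tripeptidyl peptidase, fell from 460 ± 6.50 to 260 ± 19.0 CPM (SD, n = 4, log2 change -0.82). Ppt1, a thioesterase that removes palmitate from proteins, rose from 257 ± 19.6 to 329 ± 36.6 CPM (log2 change 0.36, edgeR adjusted p = 0.0231), which was -0.33 with library totals only. Grn encodes progranulin, the precursor of the granulins, and was at 2265, 2509, 3270 and 2114 CPM and at 2809, 3194, 2889 and 3368 CPM. It was not called (log2 change 0.27, SE 0.17, edgeR adjusted p = 0.187). It was called higher without vehicle replicate 3 (0.48, edgeR adjusted p = 0.0211) and lower with library totals only (-0.40, edgeR adjusted p = 0.0432). The acid phosphatase Acp2 rose from 289, 246, 298 and 233 CPM to 384, 528, 426 and 494 CPM (log2 change 0.78, SE 0.14, edgeR adjusted p = 0.000898), or by 0.11 with library totals only, and 12.57% of its exonic bases overlap Ddb2 on the other strand, which had at most 82 counts in a library. Acp5, the tartrate-resistant phosphatase of osteoclasts, was at 12.6, 1.04, 2.35 and 0.888 CPM and at 8.74, 5.77, 3.08 and 2.60 CPM. Vehicle replicate 1 stood apart, and without it Acp5 was called higher (1.85, edgeR adjusted p = 0.0182, against 0.25 with all libraries and -0.39 with library totals only).

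The 2 transcription factors went in opposite directions. Tfeb (chromosome 17, 47737030 to 47792419) fell from 28.1, 21.97, 25.4 and 21.9 CPM to 4.13, 9.04, 3.64 and 8.44 CPM (log2 change -1.95, SE 0.29, edgeR adjusted p = 0.000263). Tfe3 (chromosome X, 7762560 to 7775202) rose from 137, 131, 149 and 128 CPM to 236, 240, 225 and 242 CPM (log2 change 0.79, SE 0.09, edgeR adjusted p = 6.29e-05), which was 0.12 and not called with library totals only. Neither pair of groups overlapped. Per length, Tfe3 was already the higher of the 2 in vehicle, at 14.7 against 4.29 CPM per kb, and was at 25.5 against 1.11 CPM per kb after LPS.

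Genes sorted by the promoter motifs printed above differed in their changes, given here as counts and medians with no test. Of the 6 genes with TCACGTGA 4 rose and 0 fell, with a median log2 change of 0.58. Of the 40 tested genes whose promoter lacks it 8 rose and 24 fell, with a median of -0.74. Of all genes tested 30.3% rose and 33.8% fell. Among the 6, Atp6v0d1, Atp6v0e and Atp6v1a are V-ATPase genes, so motif and role cannot be told apart. The call of Gla was lost without some single libraries. Under library totals only the medians with and without TCACGTGA were -0.11 and -1.41. Of the 6 genes 0 were then higher and 2 lower, against 14.4% and 61.1% of all genes. With the shorter CACGTG the medians were -0.04 for 14 genes, of which 5 rose and 6 fell, and -0.90 for 32 genes without it, of which 7 rose and 18 fell. Lamp1 and Sgsh, with 4 and 1 E-boxes of the shorter form, both fell. Arsa, Gaa, Glb1 and Naglu, which also hold the shorter form alone, fell too. Atp6v0b, with 2 such E-boxes, rose (0.37), and Lgmn was not called (0.41). The call of Lamp1 was lost without any 1 library other than LPS replicate 3. That of Atp6v0b was lost with upper quartile scaling and with library totals only.

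The second list held 81 further genes of the pathway, of which 72 were tested. Of these 20 rose and 32 fell (27.8% and 44.4%, against 30.3% and 33.8% of all genes), with a median log2 change of -0.23. With library totals only 8 were higher and 52 lower, against 14.4% and 61.1% of all genes, and their median was -0.91 beside -0.79 for all genes. Among those whose log2 CPM averaged at least 1 and whose groups did not overlap, the 3 largest rises were Slc15a3, Mcoln2 and Cd164. Slc15a3, a proton-coupled transporter of histidine and peptides, rose from 299, 400, 380 and 336 CPM to 2781, 3127, 3283 and 3301 CPM (log2 change 3.14, SE 0.15, edgeR adjusted p = 3.46e-07). Of its exonic bases 28.06% overlap Tmem132a on the other strand, and reads of these genes may not be told apart. Cd164, a sialomucin, rose from 157 ± 16.8 to 539 ± 213 CPM (SD, n = 4, log2 change 1.78), with 857 CPM in LPS replicate 3. By the same limits, which leave out Mcoln3, the 3 largest falls were Sort1, Galc and Abca2. Sortilin, the sorting receptor encoded by Sort1, fell from 214, 155, 127 and 181 CPM to 9.40, 3.76, 4.15 and 3.84 CPM (log2 change -5.01, SE 0.34, edgeR adjusted p = 1.85e-06). Galc, the galactosylceramidase lost in Krabbe disease, fell from 229, 240, 210 and 259 CPM to 12.9, 14.6, 14.97 and 14.7 CPM (log2 change -4.03, SE 0.11, edgeR adjusted p = 3.75e-08). Abca2, a lipid transporter, fell from 62.8 ± 5.31 to 4.84 ± 1.40 CPM (log2 change -3.70). By role, 2 of 6 further V-ATPase subunits rose and 3 fell, 3 of 15 other hydrolases and activators rose and 7 fell, and 11 of 24 other membrane proteins rose and 10 fell. Of 12 sorting genes 3 rose and 6 fell, and of 15 genes of nutrient sensing and the MiT/TFE family 1 rose and 6 fell.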

How the data were processed

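The authors aligned single-end reads to GRCm38 with GSNAP, counted uniquely aligned reads per Ensembl gene with HTSeqGenie 4.30, and deposited raw counts with no normalization. The annotation release and the use of strand are not given in the sources used here, and the labels and the methods name different library kits and sequencers, so reads of genes that overlap on opposite strands may not be told apart. All 8 columns mapped to a sample.

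Counts were tested with edgeR 4.0.16 (R 4.3.3; TMM, filterByExpr at a count of 10 and a total of 15, two-sided quasi-likelihood test, Benjamini-Hochberg adjustment over all tested genes, threshold 0.05), after the code was tested on simulated data. DESeq2 1.42.0 was an alternative, beside limits on low counts, other scalings, a replicate block, stricter thresholds and leaving out each library. Paralog shares used counts per exon length. Shared reads were looked for with windows of 50 bases of GENCODE vM21 transcripts. Tables and figures were made in Python 3.11.15 with scipy 1.17.1 and matplotlib 3.10.9.

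The 54 genes, the other lists and the tests were chosen with earlier results of these data known. Named genes were the 5 largest rises and falls called at 0.05 whose log2 CPM averaged at least 1 and whose groups did not overlap, the gene with the highest level per length of each role, all paralogs of the shares, and the 3 largest rises and falls of the second list by the same criteria. Other genes of the list are given by role, and those with values per library beyond this rule were chosen after their values were seen.

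Deviations of same-numbered vehicle and LPS libraries from their group means gave r of 0.373, 0.196, 0.171 and 0.108 in the order of their numbers, over 8010 genes averaging at least 3 in log2 CPM. All exceeded 0.1, the limit set, so the numbers were treated as pairs in a blocked fit. These values were not set beside those of libraries with different numbers, so they cannot show that equal numbers are pairs. No batch is named in the labels. Counting error is covered by the SD between libraries, and the floor of 3 counts covers counting error only. Some genes of the lists are counted in their totals but not reported singly here.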

Additional observations from a re-analysis of the deposited data

Results flagged for a closer look

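Values far from the other 3 libraries of their group were found in 8 of 118 groups of 4 libraries, where chance gives about 1 in 20. In each, the gap to the nearest library took up more of the group's range than Dixon's 95% limit for 4 values. In LPS replicate 3, Scarb2 was at 209.5 CPM against 136.0 to 145.5, Lipa at 385.1 CPM against 200.1 to 217.0, and Asah1 at 252.1 CPM against 212.3 to 214.6. The Lamp2 share of Lamp1 and Lamp2 was 29.24% in the same library against 20.76% to 21.58%. Man2b1 was at 381.9 CPM in LPS replicate 1 against 251.4 to 262.1. In vehicle replicate 3, Hexa was at 1570 CPM against 1308 to 1335. In vehicle replicate 1, Acp5 was at 12.6 CPM against 0.888 to 2.35, and the Tfeb share of Tfeb and Tfe3 was 25.06% against 21.48% to 21.81%.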

How the results depend on the processing

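With library totals only, 1988 of all genes were higher and 8457 lower (14.4% and 61.1%). Under that scaling 3 of the 53 genes were higher, and 8 of the second list were higher and 52 lower. With a log2 change of at least 1 required, 2224 of all genes were higher and 2998 lower, 4 of the 53 were higher, and 6 of the second list were higher and 17 lower. The same counts of the 53 genes, higher and lower, were 14 and 27 with DESeq2, 12 and 26 with no filter, 14 and 28 with at least 10 counts in every library, 11 and 30 with upper quartile scaling, and 11 and 26 at an adjusted p under 0.01. With the replicate block they were 14 and 28, and of the 53 genes the block changed the call of Atp6v1b2 alone. Without each replicate in turn, higher and lower counts were 3952 to 4393 and 4003 to 5015 for all genes, 13 to 16 and 26 to 28 for the 53, and 16 to 19 and 29 to 35 for the second list. Of the 53 genes, 12 changed sign with library totals only. Among named genes the sign turned for Atp6v0b (-0.30), Lgmn (-0.26) and Atp6v0d1 (-0.16) with library totals only, and for Mcoln1 with library totals only (-0.62), with upper quartile scaling (-0.10) and without LPS replicate 2, the lowest of -0.014 to 0.138 over the libraries left out. Of 433 values of 31 named genes under the alternatives, 402 kept their direction and side of the threshold. With pairs as blocks, the share differences of -11.3, 27.3, 12.8, -18.4 and -27.3 percentage points (Atp6v0d2, Tcirg1, Lamp2, Tfeb and Mcoln1) had an exact p of 0.125, the smallest that 4 pairs allow. Without each replicate in turn they were -12.7 to -9.75, 25.4 to 29.8, 10.7 to 13.6, -19.0 to -17.6 and -31.5 to -24.6, and the Mcoln1 share missed the threshold without any 1 LPS library (adjusted exact p = 0.0571). The cause of these shifts was not tested. Depth limits what can be said of Mcoln3 after LPS.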
